A study of Nomascus leucogenys with 9 samples.

Results

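The genes described here are 10 genes of plasma cell differentiation: PRDM1, XBP1, SDC1, MZB1, JCHAIN, CD38, DERL3, FKBP11, SSR4 and SEC11C. They were chosen by name, as rows of the normalized gene table under fixed human Ensembl identifiers, which are given at each gene. All 10 identifiers were found among the 15356 rows of the table and 0 were absent. All 10 also passed the filter on low rows, a mean of at least 1 ppm (parts per 1000000) of a library's linear total, which left 12590 rows. Expression was measured by RNA-seq in EBV-transformed lymphocyte lines, cultured cells immortalised with Epstein-Barr virus, from 9 northern white-cheeked gibbons (Nomascus leucogenys). All lines form 1 group with no treatment, genotype or age given, so the results describe how far the lines differed and which of these genes differed together. Lines are given by number in the order of the table: line 9 is the animal labelled Vok, line 8 Ricky, line 7 Phyllis, line 6 Nancy, line 5 Melouprey, line 4 Khao, line 3 China, line 2 Bobby and line 1 Asia. Each line is 1 culture with 1 library, so a difference between animals cannot be told apart from one between cultures or libraries, and neighbours in an order of lines have no spread of their own to be compared with.

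A plasma cell is the antibody-secreting end stage of the B cell lineage. PRDM1 (Blimp-1) is the transcriptional repressor that shuts down the B cell programme, and XBP1 is the transcription factor that expands the endoplasmic reticulum (ER) for secretion. Syndecan-1 (SDC1) and CD38 are surface proteins used to recognise plasma cells, JCHAIN joins IgM and IgA into polymers, and the remaining genes serve protein folding, import or quality control in the ER. Lymphoblastoid lines resemble activated B cells, some of which start on the way to plasmablasts.

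The deposited values were on a log scale and were read as log2, so a difference of 1 unit is a 2-fold difference. Depth per library is unknown and no length correction is stated, so levels are compared between lines and not between genes. Line 1 departed furthest from the other lines over the whole table. Its difference from the row median had an SD of 0.53 over all kept rows, against 0.42 (line 6), 0.40 (line 9), 0.39 (line 3) and 0.22 to 0.32 (other lines). Line 3 did not stand out in this way, since lines 6 and 9 departed further. Lines 1 and 3 were singled out because most of the 10 genes were low in them. Results that rest on line 1 or line 3 are given with and without them. Markers of B cells, T cells, NK cells and monocytes had been listed by symbol, but only the identifiers of the 10 genes were paired with a symbol in the sources used here. The labelled cell type was therefore not checked against its markers, and the part of other cell types in the results was not tested. In bulk RNA, fewer cells on the way to plasma cells and less of these transcripts per cell cannot be told apart.

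Most of the plasma cell genes were low in the same pair of lines. Of the 10 genes, 8 lay below their row median in both line 1 and line 3, and in 7 genes these were the lowest pair of all lines. Among all kept rows, 21.5% were below the median in both lines and 6.44% had them as the lowest pair. Lines 1 and 3 had rank 3 of 36 pairs of lines by how often they were the lowest pair over all rows. The exceptions were XBP1 and SEC11C, and DERL3 was low in line 6 as well. These lines were singled out after the values were seen.

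**Figure D1:**
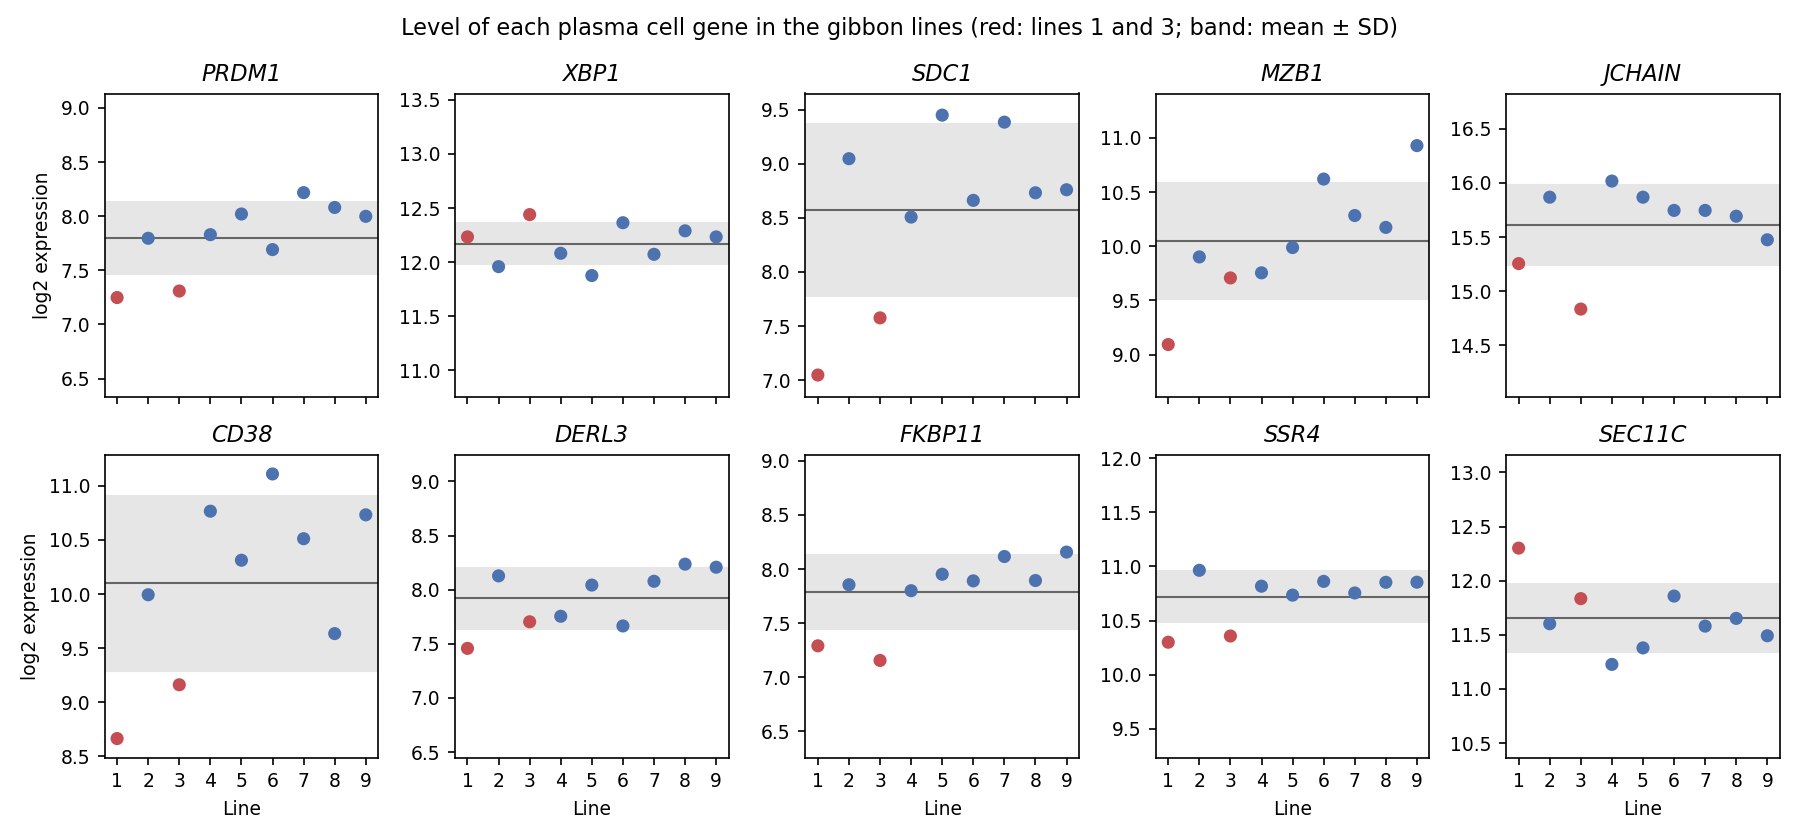
Levels (log2 expression, vertical axes of equal span) of the 10 genes in lines 1 to 9; each point is 1 library, the line is the mean and the band the mean ± SD over 9 lines. Lines 1 and 3, in red, are the lowest pair for PRDM1, SDC1, MZB1, JCHAIN, CD38, FKBP11 and SSR4, but not for XBP1, DERL3 or SEC11C.

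The repressor PRDM1 (ENSG00000057657) differed by slightly less than 2-fold over the lines. Its level was 7.25 log2 units (line 1) and 7.31 (line 3), then 7.69 (line 6), 7.80 (line 2), 7.83 (line 4), 7.999 (line 9), 8.02 (line 5), 8.08 (line 8) and 8.22 (line 7). The pair of low lines was separated from the other lines by a gap of 0.38 log2 units. The mean was 7.80 ± 0.34 log2 units (SD, n = 9), and the highest line was 1.96-fold above the lowest. The SD was larger than that of 74.9% of all kept rows.

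XBP1 (ENSG00000100219) varied least of the 10 genes, and line 3 was its highest line. Its level ran from 11.88 log2 units (line 5) and 11.96 (line 2), through a median of 12.23 (lines 1 and 9), to 12.36 (line 6) and 12.44 (line 3). The mean was 12.17 ± 0.19 log2 units (SD, n = 9) with a 1.48-fold span, and 38.3% of kept rows had a smaller SD. Lines 1 and 3, low in PRDM1, were thus not low in XBP1. These values are gene totals. The spliced, active form of XBP1 mRNA, which the ER stress sensor IRE1 produces, was not analysed here.

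The genes of the surface proteins, SDC1 (ENSG00000115884) and CD38 (ENSG00000004468), varied most in RNA level. For SDC1, a proteoglycan, the levels were 7.05 log2 units (line 1), 7.58 (line 3), 8.51 (line 4), 8.66 (line 6), 8.73 (line 8), 8.76 (line 9), 9.05 (line 2), 9.38 (line 7) and 9.45 (line 5). Lines 1 and 3 lay 0.93 log2 units or more below every other line. The mean was 8.57 ± 0.79 log2 units (SD, n = 9) and the span 5.28-fold. For CD38, an enzyme that consumes NAD, the levels were 8.66 log2 units (line 1), 9.16 (line 3), 9.63 (line 8), 9.99 (line 2), 10.31 (line 5), 10.51 (line 7), 10.73 (line 9), 10.76 (line 4) and 11.11 (line 6). The mean was 10.10 ± 0.81 log2 units (SD, n = 9) and the span 5.44-fold. The same lines were lowest for both genes, but the highest differed, line 5 for SDC1 and line 6 for CD38. The SD of CD38 was larger than that of 96.7% of kept rows, and the SD of SDC1 larger than that of 96.5%.

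JCHAIN (ENSG00000132465) followed the same pair of lines with a smaller span. It stood at 14.84 log2 units (line 3) and 15.26 (line 1), against 15.48 (line 9), a median of 15.75 (lines 6 and 7) and 16.02 (line 4). The mean was 15.61 ± 0.37 log2 units (SD, n = 9), and the span was 2.27-fold. On the linear scale the JCHAIN row held 3688 ± 825 ppm of a library's total (SD, n = 9). Its values were equal within 0.0001 in 2 pairs of lines and those of XBP1 in 1 pair, while the other 8 genes had no such pair. Such equal values occurred in 1.87% of kept rows. The ranks behind each rho and the counts above a row median still order such lines by these tiny differences, which carry no meaning.

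The genes of the ER varied in different ways. MZB1 (ENSG00000170476), a chaperone partner that helps assemble and secrete immunoglobulin, was 9.09 log2 units (line 1), 9.71 (line 3), 9.75 (line 4), 9.90 (line 2), 9.99 (line 5), 10.17 (line 8), 10.28 (line 7), 10.62 (line 6) and 10.93 (line 9). Line 1 was lowest and line 9 highest, and line 3 lay only 0.047 log2 units below line 4. The mean was 10.05 ± 0.54 log2 units (SD, n = 9) and the span 3.57-fold. FKBP11 (ENSG00000134285), a peptidyl-prolyl isomerase of secretory cells, was 7.16 log2 units (line 3) and 7.29 (line 1), and between 7.80 (line 4) and 8.16 (line 9) in the others. Its mean was 7.79 ± 0.34 log2 units (SD, n = 9) and its span 2.001-fold, with a gap of 0.51 log2 units above the low pair.

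SSR4 (ENSG00000180879), a subunit of the translocon-associated protein complex, had the same split in a narrower range. It was 10.30 log2 units (line 1) and 10.36 (line 3), and between 10.73 (line 5) and 10.96 (line 2) in the other lines (mean 10.72 ± 0.23, SD, n = 9; 1.58-fold span). DERL3 (ENSG00000099958), which helps export misfolded proteins from the ER, was lowest in line 1 at 7.46 log2 units, but line 6 came next at 7.66, before line 3 at 7.70 and line 4 at 7.75. The remaining lines lay between 8.04 and 8.24 (mean 7.92 ± 0.28, SD, n = 9; 1.71-fold span). In the gibbon RefSeq gene table (assembly Asia_NLE_v1), DERL3 overlaps SMARCB1 and FKBP11 overlaps CCDC65. Whether counting used strand is not known here, so reads of these neighbours could have entered either row.

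SEC11C (ENSG00000166562), a catalytic subunit of the signal peptidase complex, ran the other way. Its level was highest in line 1 at 12.30 log2 units, followed by 11.86 (line 6) and 11.83 (line 3). It was 11.65 (line 8), 11.60 (line 2), 11.58 (line 7), 11.49 (line 9), 11.38 (line 5) and 11.23 (line 4). The line with the least SDC1, CD38, PRDM1, MZB1, DERL3 and SSR4 was therefore the one with the most SEC11C. Among all kept rows, line 1 was the highest line in 22.6%, more often than any other line, and the lowest in 14.0%. The mean was 11.66 ± 0.31 log2 units (SD, n = 9) and the span 2.11-fold.

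**Figure D2:**
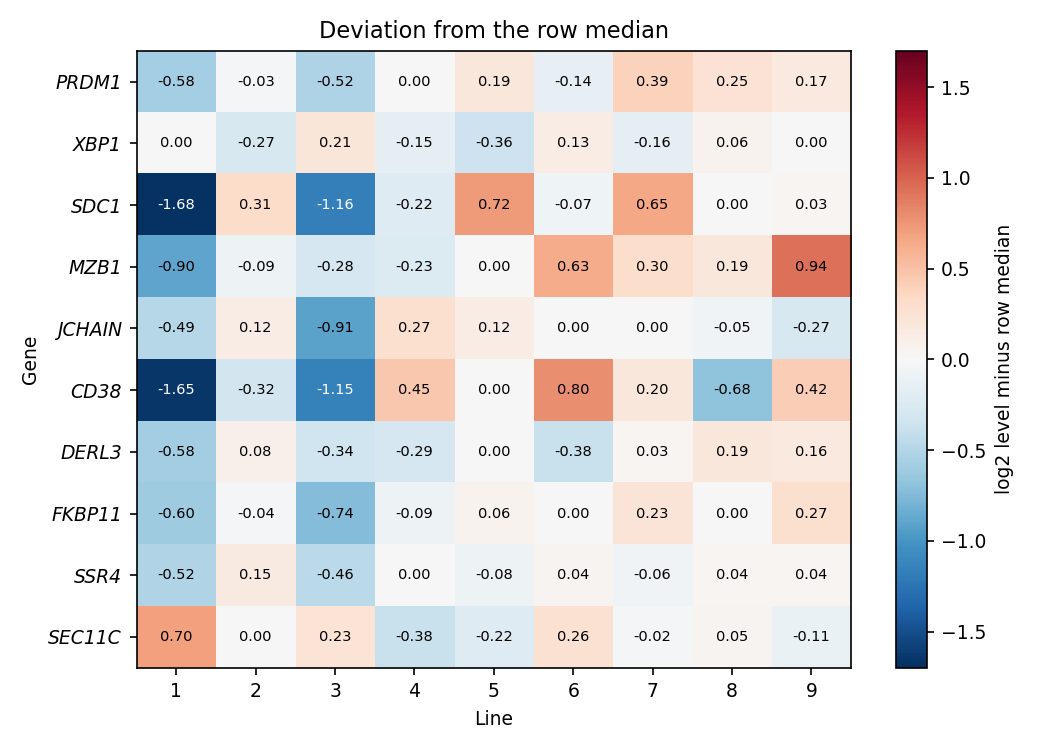
Deviation of each gene (rows) in each line (columns) from the median of its row, in log2 units, with blue below and red above the median. Line 1 is blue for 8 genes, near 0 for XBP1 and red (0.70) for SEC11C.

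Counted by line, most of the 10 genes lay below their row median in lines 1 and 3. Deviations were taken from each row's own median, and over all rows their median was near 0 in every line. The part of scaling before deposit in this was not tested. Over all rows, line 1 had more above than below. In line 1, 1 gene lay above its row median and 8 below, with a median deviation of -0.58 log2 units, while 53.1% of all kept rows lay above and 39.6% below (median deviation 0.02). In line 3, 2 genes lay above and 8 below, with a median deviation of -0.49, against 44.4% above and 45.8% below over all rows. At the other end, line 9 had 8 of the 10 genes above the median, with a median deviation of 0.10, against 49.3% of all rows. Among them was XBP1, in which lines 1 and 9 were equal within 0.0001, and with columns centred on their median the number was 7. Line 8 had 7 above, with a median deviation of 0.04, against 39.4% of all rows. No test was made of these counts. By Dixon's gap criterion, no single line was outlying in any of the 10 genes, a criterion for 1 outlying line and not for a pair.

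Of the 10 genes, 6 spanned at least 2-fold between the lowest and the highest line (SDC1, CD38, MZB1, JCHAIN, SEC11C and FKBP11), against 26.4% of all kept rows. SDC1 and CD38 spanned at least 4-fold, against 6.18%. FKBP11 lay just inside the 2-fold bound with a range of 1.001 log2 units, and PRDM1 just outside with 0.97. The median SD of the 10 genes was 0.34 log2 units, against 0.22 for all kept rows. Without lines 1 and 3, 2 genes spanned at least 2-fold (CD38 with a range of 1.47 and MZB1 with 1.18 log2 units), against 18.8% of all kept rows, and 0 at least 4-fold, against 3.19%. Without line 1 alone, 0 genes spanned at least 4-fold, against 4.11% of rows. The range left without lines 1 and 3 was 56.5% of the full range in the median of the 10 genes and 95.3% in the median of all kept rows. These lines had been picked as low in most of the 10 genes, so a narrower range without them was partly built in. In proportion, the ranges of SSR4 and FKBP11 shrank most without both lines, from 0.66 to 0.23 and from 1.001 to 0.36 log2 units, followed by that of SDC1, from 2.40 to 0.94.

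**Figure D3:**
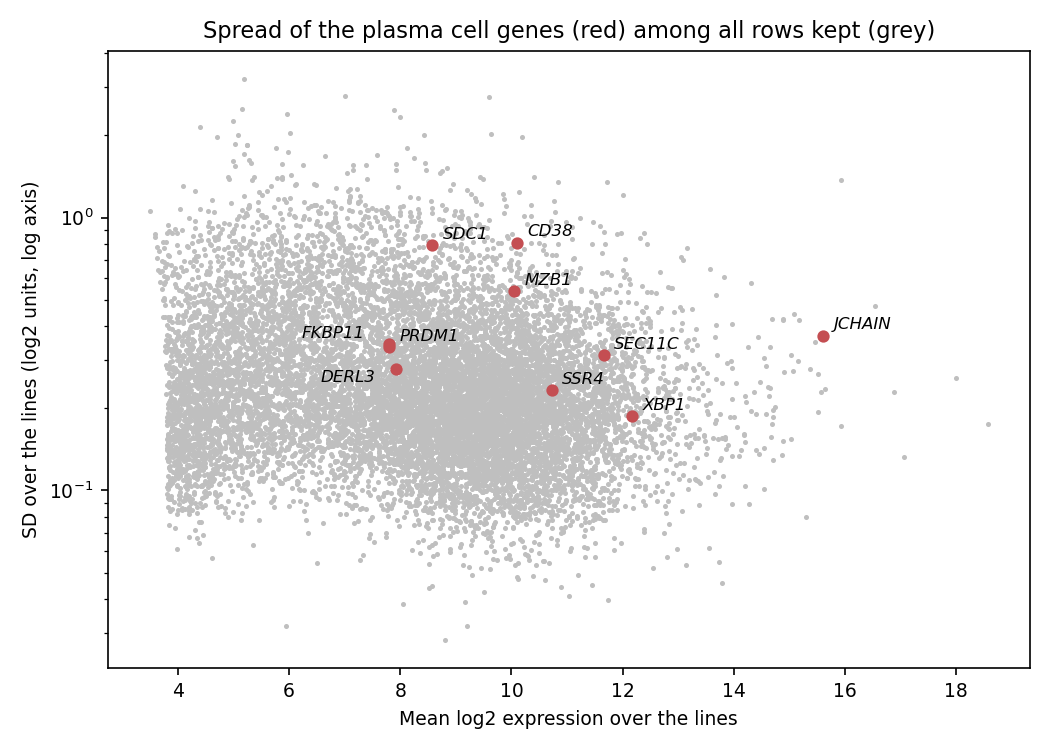
SD over the 9 lines (log axis) against the mean log2 level, for the 10 genes in red and all 12590 kept rows in grey. SDC1 and CD38 lie high among rows at their level (SD 0.79 and 0.81), and XBP1 (0.19) lies inside the bulk.

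Over all 9 lines, the levels of the 8 genes other than XBP1 and SEC11C were positively correlated. All 28 pairs among these 8 had a positive Pearson's r, between 0.27 (MZB1 and JCHAIN) and 0.92 (PRDM1 and FKBP11), with a median of 0.74. XBP1 and SEC11C were set aside because they were not low in lines 1 and 3, so positive values among the other 8 genes were partly built in. SEC11C had a negative r with each of them, from -0.74 with SDC1 to -0.43 with MZB1, and r = 0.54 with XBP1. Without lines 1 and 3, 5 of the 9 pairs of SEC11C were positive, and r was -0.06 with SDC1, 0.50 with MZB1, 0.39 with SSR4 and 0.08 with FKBP11. XBP1, over all 9 lines, had a negative r with 7 of its 9 partners, the lowest being -0.69 with JCHAIN, and r = 0.10 with MZB1. Over the 7 lines other than 1 and 3, 5 of its 9 pairs were positive, with r = 0.66 for MZB1. Of all 45 pairs, 30 were positive over 9 lines and 23 without lines 1 and 3. The genes share the 9 libraries, so the pairs are not independent.

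Without lines 1 and 3, the positive values no longer prevailed. Of the 28 pairs, 14 had a positive r over the remaining 7 lines, and their median r was 0.0062, with values from -0.91 to 0.70. Pairs that remained positive included PRDM1 with SDC1 (0.56), with DERL3 (0.66) and with FKBP11 (0.65), and MZB1 with FKBP11 (0.70). SSR4 with PRDM1 went from 0.77 to -0.60, and CD38 with SDC1 from 0.72 to -0.27. The correlation of these genes over the 9 lines did not hold without lines 1 and 3. Since these lines were picked as low in most of the 8 genes, and XBP1 and SEC11C were set aside because they were not, a lower r without them was partly built in.

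**Figure D4:**
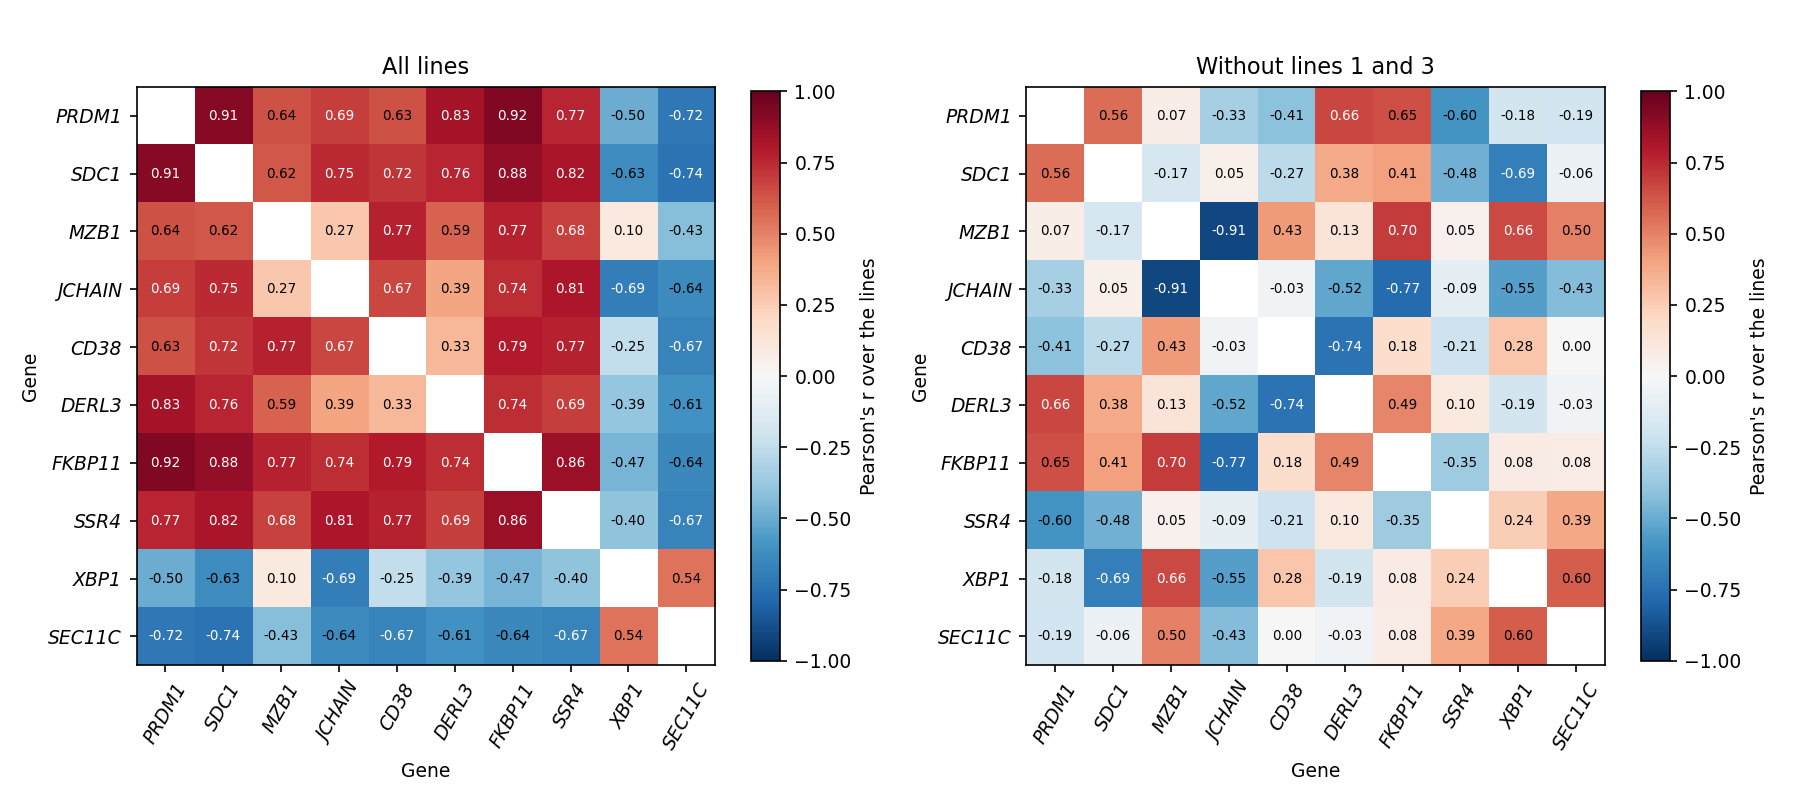
Pearson's r between each pair of the 10 genes over all 9 lines (left) and over the 7 lines without lines 1 and 3 (right), from -1 (blue) to 1 (red). The block of 28 positive values on the left, with a median of 0.74, has 14 positive values and a median of 0.0062 on the right.

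To place these relations beside the rest of the table, every kept row was regressed on the level of each of the 10 genes with limma, and p-values were Benjamini-Hochberg adjusted over all 12589 other rows. With SDC1 as the covariate, PRDM1 rose by 0.38 ± 0.08 log2 units per unit of SDC1 (SE, limma adjusted p = 0.043) and FKBP11 by 0.38 ± 0.08 (SE, limma adjusted p = 0.049). These were 2 of the 9 other genes, against 247 rows, or 1.96%, of the whole table. With PRDM1 as the covariate, the same relation to SDC1 did not pass (limma adjusted p = 0.095), nor did that to FKBP11 (0.096), and 0 rows of the table passed (0.0%), with 2428 at an unadjusted p under 0.05. The number of rows that passed was 8 without line 2, 8 without line 6 and 1 without line 7. For SDC1 with PRDM1 as the covariate, the unadjusted limma p was 9.2e-05. For PRDM1 with SDC1 as the covariate it was 0.00052, at the same r of 0.91. The adjusted p also depends on the p-values of the other rows in each regression, so it does not rank the 2 directions. No other tool was run. The count of 247 was 0 without line 1, 9 without line 2, 34 without line 3, 30 without line 5, 432 without line 6, 12 without line 7, 19 without line 8 and 469 without line 9. The call of PRDM1 was lost in 6 of 9 omissions of a line (1, 2, 3, 5, 7 and 8) and that of FKBP11 in 7 (the same and line 4). Over the 9 omissions, the limma adjusted p ran from 0.034 to 0.22 for PRDM1 and from 0.035 to 0.21 for FKBP11, while r stayed between 0.85 and 0.93 and between 0.84 and 0.93. FKBP11 also missed the threshold without a filter on low rows (limma adjusted p = 0.0501) and with a prior that was not robust (0.0503).

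By the exact two-sided permutation test on each pair alone, PRDM1 and SDC1 gave r = 0.91 (p = 0.0023; rho = 0.77, p = 0.021, n = 9). Without lines 1 and 3, which are also the pair farthest from the median of PRDM1, r was 0.56 (exact permutation p = 0.19, n = 7). PRDM1 and FKBP11 gave r = 0.92 (exact permutation p = 0.0021; rho = 0.80, p = 0.014, n = 9), and 0.65 without those lines (exact permutation p = 0.13, n = 7). SDC1 and FKBP11 gave r = 0.88 (exact permutation p = 0.0072; rho = 0.78, p = 0.017, n = 9), and 0.41 without them (exact permutation p = 0.35, n = 7). These p-values are not adjusted for the 45 pairs; the limma values above are adjusted over the table.

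**Figure D5:**
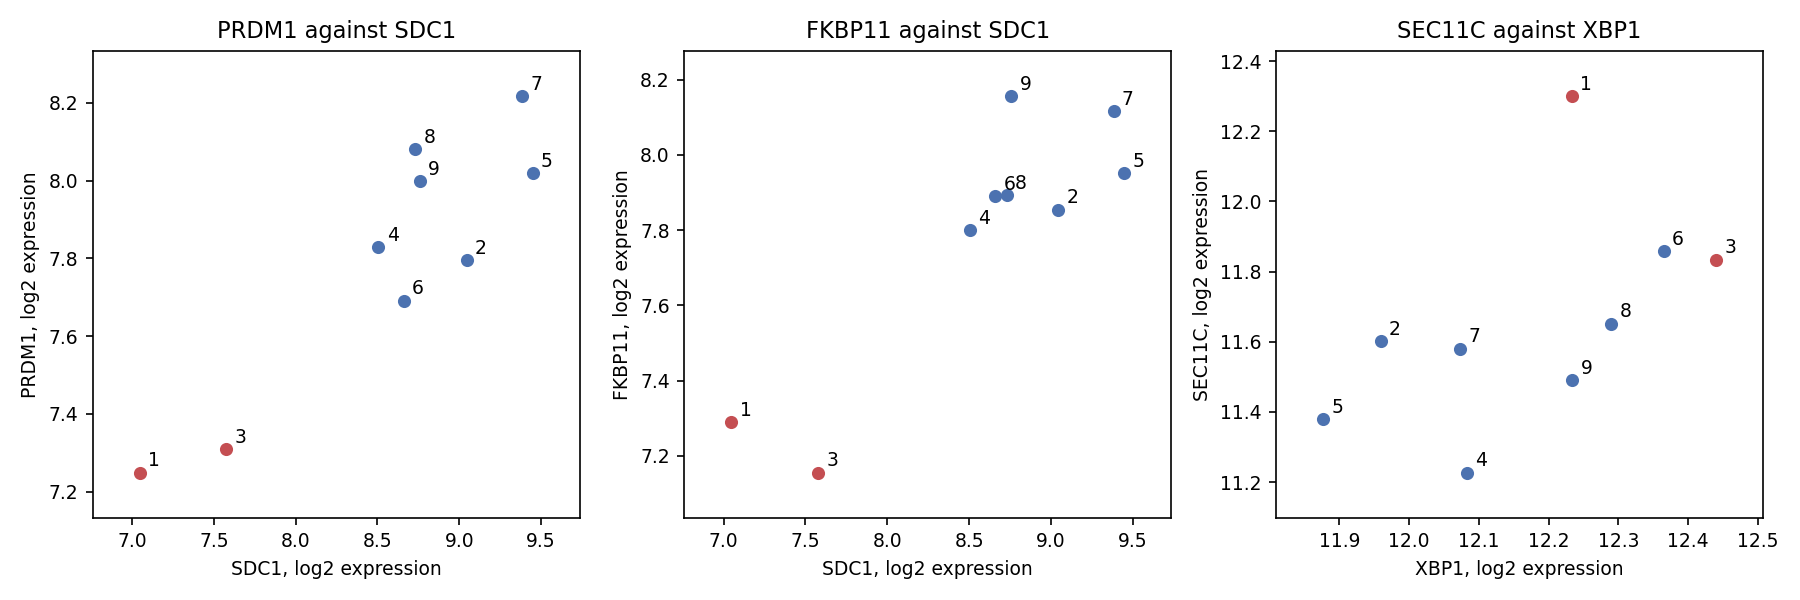
Level of PRDM1 and FKBP11 against SDC1, and of SEC11C against XBP1, in log2 expression; each point is 1 line with its number, and lines 1 and 3 are red. Lines 1 and 3 sit alone at the low end of the SDC1 panels (7.05 and 7.58), while line 1 is the highest in SEC11C (12.30).

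At an unadjusted limma p under 0.05, 8 of the 9 other genes were related to PRDM1, 7 of them positively, with SEC11C negative and XBP1 not among them. The share of all rows was 19.3%. The count was the same for SDC1, with 7 positive and 1 negative, against 21.8% of all rows. It was also 8 for FKBP11 (16.95% of rows) and SSR4 (13.69%), each with 7 positive and 1 negative. For JCHAIN (5 positive and 2 negative, 13.29% of rows) and CD38 (6 positive and 1 negative, 10.01%) it was 7. For MZB1 (10.71%) and DERL3 (18.38%) it was 5, all positive. With SEC11C as the covariate, 6 genes were related, all negatively, against 19.2% of rows. Without lines 1 and 3 the number of genes was 0 for PRDM1 (6.0% of rows), 0 for SDC1 (8.94%), 0 for SEC11C (6.74%) and 1 for XBP1 (6.12%). The number was 2 for FKBP11 (20.2%), 1 each for MZB1 (12.7%), JCHAIN (13.35%) and DERL3 (9.83%), and 0 for CD38 (3.65%) and SSR4 (0.794%). For FKBP11, MZB1 and JCHAIN the share of rows was thus not lower than over all 9 lines. Without these lines, 0 rows had an adjusted p under 0.05 in any of the 10 regressions. The lines had been picked as low in most of the 10 genes. Without them 7 lines were left, with 54.3% of the range of PRDM1, 39.2% of that of SDC1 and 86.7% of that of XBP1. Fewer calls were therefore partly built in for most of these regressions.

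Few of the other genes passed a threshold in the regression on XBP1. XBP1 had the smallest range of the 10 genes (1.48-fold), so a missing call does not show that a relation was absent. None of the 9 passed in its regression, in which 1 row of the table did (0.00794%). At an unadjusted limma p under 0.05, JCHAIN and SDC1 were related to it, both negatively, against 10.1% of rows. JCHAIN changed by -1.36 ± 0.49 log2 units per unit of XBP1 (SE, limma adjusted p = 0.42), with r = -0.69 (exact permutation p = 0.034; rho = -0.63, p = 0.076, n = 9). With lines 2 and 5 left out, which lay farthest from the median of XBP1, r was -0.67 (exact permutation p = 0.093, n = 7), and without lines 1 and 3 it was -0.55 (p = 0.20). SDC1 changed by -2.66 ± 1.08 log2 units per unit of XBP1 (SE, limma adjusted p = 0.46), and its r of -0.63 (exact permutation p = 0.070; rho = -0.67, p = 0.059, n = 9) was -0.69 without lines 1 and 3 (p = 0.10) and -0.45 without lines 2 and 5 (exact permutation p = 0.31, n = 7). DERL3, FKBP11 and SSR4, which also serve the ER, had r = -0.39, -0.47 and -0.40 with it over 9 lines, and limma adjusted p between 0.62 and 0.71. These r were -0.19, 0.08 and 0.24 without lines 1 and 3. XBP1 and SEC11C gave r = 0.54 (exact permutation p = 0.13; rho = 0.58, p = 0.11, n = 9), 0.60 without lines 1 and 3 (p = 0.15) and 0.49 without lines 2 and 5 (exact permutation p = 0.25, n = 7).

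The regressions on the remaining genes called 0 of the 9 partners each. They called 0 rows for MZB1, CD38 and DERL3 (0.0% each), 33 for JCHAIN (0.262%), 17 for FKBP11 (0.135%), 29 for SSR4 (0.23%) and 117 for SEC11C (0.929%). The calls for JCHAIN, FKBP11, SSR4 and SEC11C all fell to 0 without lines 1 and 3, where fewer calls were partly built in. With 1 line left out, they lay between 0 and 75 for JCHAIN, 0 and 106 for FKBP11, 0 and 102 for SSR4, 0 and 585 for SEC11C, 0 and 9 for DERL3, and 0 and 3 for CD38. Quantile normalization gave 0 rows for JCHAIN, 253 for SEC11C and 2 for DERL3. With no filter on low rows there were 55 for JCHAIN, 36 for FKBP11, 48 for SSR4 and 299 for SEC11C, and with a filter of 5 ppm there were 18 for JCHAIN, 8 for SSR4 and 1 for DERL3. At an unadjusted p under 0.05 there were 1348 rows for MZB1, 1260 for CD38 and 2314 for DERL3.

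By r over the 9 lines, the rows most like PRDM1 included FKBP11 and SDC1. Of the 12589 other rows, 34 had a larger absolute r with PRDM1 than FKBP11 and 59 a larger one than SDC1. Without lines 1 and 3, r was 0.65 for FKBP11 (limma adjusted p = 0.75) and 0.56 for SDC1 (limma adjusted p = 0.73). The ranks were not computed without these lines. Over the 9 lines, the closest row to PRDM1 was ENSG00000165661 (r = 0.97, limma adjusted p = 0.085) and the most opposite ENSG00000162735 (r = -0.97, limma adjusted p = 0.12). For XBP1, the partner among the 10 genes with the largest absolute r, JCHAIN, was exceeded by 950 rows. The closest row to XBP1 was ENSG00000197562 (r = 0.93, limma adjusted p = 0.36) and the most opposite ENSG00000170365 (r = -0.99, limma adjusted p = 0.0078). The latter was the 1 row called, and the call was lost without line 2, 3, 5 or 6, each of which left 0 rows. These rows are given under the table's identifiers, because no symbol is paired with them.

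Among the 7 lines other than 1 and 3, the immunoglobulin partner genes JCHAIN and MZB1 ran in opposite directions. JCHAIN was lowest in line 9 (15.48 log2 units), where MZB1 was highest (10.93), and highest in line 4 (16.02), where MZB1 was lowest of the 7 (9.75). Their r was -0.91 (exact permutation p = 0.0046; rho = -0.86, p = 0.024, n = 7), against 0.27 over all lines (exact permutation p = 0.47; rho = 0.12, p = 0.78, n = 9). Adjusted over all rows the relation did not pass (limma adjusted p = 0.33 with either gene as covariate). JCHAIN and FKBP11 also went from r = 0.74 over all lines (exact permutation p = 0.030; rho = 0.15, p = 0.71, n = 9) to -0.77 (p = 0.037; rho = -0.82, p = 0.034, n = 7). These pairs were picked from 45 after the values were seen.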

How the data were processed

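The data are 1 table that holds a column for each of the 9 lines. Its values, deposited by the authors as normalized gene counts, are on a log scale and were taken as log2. Trimmomatic, STAR, edgeR and DESeq2 appear in the submitters' processing notes without versions or roles. Not given in the sources used here: log base, genome build, annotation and normalization method. Raised to base 2, the columns sum to between 13728358 and 14059842, so depth had been removed before deposit, and no counting interval could be given. If a transformation that shrinks differences in low rows was used, every SD, range and fold is on that scale. Of the per-sample columns, 0 were left unused.

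The symbols of the 10 genes come with the rule that chose them, and all 10 symbols are in the gibbon RefSeq gene table, which holds 33914 genes and 0 Ensembl identifiers. Lists of other secretory pathway genes, B cell regulators and cell type markers were drawn up by symbol and are not analysed here, because no table used here pairs their symbols with identifiers. The members and lists were chosen with earlier results of these data known. The rule for named rows took all 10 genes and, for XBP1 and PRDM1, the row with the highest and the lowest r.

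Rows whose mean reached 1 ppm of the linear total were tested, without a further pseudocount. Every kept row was regressed on each gene with limma 3.58.1 in R 4.3.3 (empirical Bayes with trend, robust), with Benjamini-Hochberg adjustment over all rows and a threshold of 0.05. On simulated data with 12590 rows and 200 rows tied to a covariate, with a slope of 3 row SDs for a covariate of unit SD, 197 were recovered, with 14 false calls. The rows were simulated as independent of one another, and the tied rows followed the covariate closely. These numbers therefore do not show how often weaker relations, or rows that share differences between lines, would be called. Pairs were tested with exact two-sided permutation of the 9 lines (362880 orders). The alternatives were other scalings, a pseudocount of 1 on the linear scale, no filter or a filter of 5 ppm, other priors, ranks of the covariate, and omission of each line. The omission of lines 1 and 3 together, and the counts at an unadjusted p, were added after seeing the data.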

Additional observations from a re-analysis of the deposited data

How the results depend on the processing

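The number of genes spanning at least 2-fold was 6 as deposited, and 2 without lines 1 and 3. With a line left out it lay between 4 (without line 3) and 6. It was 5 with columns centred on their median, with quantile normalization and with a pseudocount of 1 on the linear scale. In these 3 settings FKBP11 fell just below the bound, with ranges of 0.993, 0.9997 and 0.996 log2 units. The number spanning at least 4-fold was 2, between 0 and 2 with a line left out, and 0 without lines 1 and 3. Rows that varied with PRDM1 numbered 0, but 1 with quantile normalization, 4 with a filter of 5 ppm, and between 0 and 8 with a line left out (8 without line 2, 8 without line 6). Rows that varied with XBP1 numbered 1, between 0 and 1 with a line left out, and 0 without lines 1 and 3. Rows that varied with SDC1 numbered 247, between 0 and 469 with a line left out, 0 without lines 1 and 3, and 2 with ranks of SDC1 in place of its level. Summed over the 8 regressions on genes other than XBP1 and PRDM1, the calls numbered 443, then 727 with no filter on low rows, 7 with ranks, between 7 and 963 with a line left out, and 0 without lines 1 and 3. With ranks, PRDM1 and FKBP11 no longer passed in the regression on SDC1 (limma adjusted p = 0.10 and 0.12). The slopes of PRDM1 and FKBP11 on SDC1 and of SDC1 and FKBP11 on PRDM1 kept their sign in every setting run. So did those of JCHAIN and SDC1 on XBP1. Other slopes did not. Without lines 1 and 3, those of CD38, JCHAIN and SSR4 on PRDM1 turned from positive to negative (-1.12, -0.31 and -0.25). Line 1 had 1 of the 10 genes above the row median as deposited and 2 with columns centred on their median or with quantile normalization, and line 9 had 8 and 7, because the XBP1 values of these lines are equal within 0.0001 and lie at the median. For the other changes the cause was not tested. Each rescaling moved the median row by under 0.1 log2 units. No paired analysis was possible because all lines form 1 group. Counting error could not be separated from differences between lines, since the depth is unknown.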
